A study of Mus musculus with 10 samples.

Results

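Cholesterol and fatty acid synthesis was followed in cultured splenic natural killer cells (NKC) through 36 genes chosen by name. They comprised 18 enzymes of the sterol arm, 12 enzymes of the fatty acid arm and 6 regulators. A gene was read from the probe set that carried its symbol alone and was brightest over all arrays, provided it reached log2 5 in at least 2 arrays. 35 of the 36 genes met this condition, out of 9391 genes tested among 18194 named on the arrays. Acat2, a thiolase that condenses acetyl-CoA, had no probe set of its own and was not analysed here.

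NKC came from the spleens of ICR mice aged 6 weeks, either wild type (WT, Runx3 +/+) or knockout for the transcription factor Runx3 (KO, Runx3 -/-). They were enriched by negative selection and, per the study's methods, sorted for DX5, then cultured for 7 days with recombinant human IL-2 at 1000 u/ml or with mouse IL-15, whose dose was not given in the sources used here. There were 3 WT and 3 KO arrays in IL-2, and 2 WT and 2 KO arrays in IL-15. The labels give the sex of the animals only as male or female and name no separate cultures, so p-values measure only the spread between these samples.

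Cholesterol is built from acetyl-CoA through mevalonate, isoprenoid diphosphates, squalene and lanosterol. Fatty acids are built from the same acetyl-CoA, then elongated and desaturated. Both arms are switched on by the sterol regulatory element-binding proteins (SREBPs), membrane-bound transcription factors that the escort protein SCAP carries to the Golgi for cleavage when sterols are scarce, and that INSIG proteins hold back when sterols are plentiful. Lymphocytes that begin to grow and divide make new membrane and draw on both arms.

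SREBPs act on promoters together with NF-Y, which binds CCAAT letters, so the bases in front of the start sites are shown for members that differed between genotypes. The sequences are from RefSeq (GRCm38.p6), and all of them lie upstream of an annotated transcription start. Fdps, Fdft1, Sqle, Stard4, Scd1, Scd2 and Fads1 had no promoter among these sequences and were not searched. Among the other 29 members only Hmgcs1 carried the letters TCACNCCAC of the sterol regulatory element (SRE) in the 250 bases before its start. They are in capitals in the following stretch of chr13:119690174-119690262 (plus strand), where they occupy positions -137 to -129 from the start.
Hmgcs1: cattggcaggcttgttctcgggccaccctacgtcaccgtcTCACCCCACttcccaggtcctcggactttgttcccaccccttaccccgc
The last 120 bases before the start of 4 sterol enzymes are shown with CCAAT, or its complement ATTGG, in capitals. They come from chr5:114444149-114444268 (Mvk, plus strand), chr13:8885486-8885605 (Idi1, plus strand), chr5:4104698-4104817 (Cyp51, minus strand) and chr1:169969206-169969325 (Hsd17b7, minus strand).
Mvk: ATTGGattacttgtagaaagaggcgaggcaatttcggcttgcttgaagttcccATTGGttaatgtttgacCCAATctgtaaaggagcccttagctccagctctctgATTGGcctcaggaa
Idi1: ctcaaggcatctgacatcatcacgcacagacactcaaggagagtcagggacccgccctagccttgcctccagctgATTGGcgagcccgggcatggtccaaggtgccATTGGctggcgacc
Cyp51: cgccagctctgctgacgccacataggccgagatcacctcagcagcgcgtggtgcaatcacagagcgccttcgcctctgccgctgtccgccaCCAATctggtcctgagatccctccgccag
Hsd17b7: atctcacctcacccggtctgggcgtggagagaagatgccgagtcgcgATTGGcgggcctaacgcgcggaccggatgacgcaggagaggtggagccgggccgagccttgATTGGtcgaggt
The 60 bases before the start of Fads2, whose level differed more between genotypes than that of any other member but Scd1, are shown with the core letters of RUNX sites in capitals (chr19:10101504-10101563, minus strand).
Fads2: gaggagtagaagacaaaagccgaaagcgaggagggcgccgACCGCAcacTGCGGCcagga

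CCAAT letters were common in the sterol arm. Of 15 sterol genes with a promoter in the table, 14 (93.3%) held CCAAT on either strand within 250 bases of a start, against 5 of 9 genes (55.6%) of the fatty acid arm and 40.7% of the tested genes with a promoter. By promoter, 24 of 39 member promoters (61.5%) held it, against 33.8% of all 32851 promoters in the table. The GGGCGG letters of SP1 were in 28 of the 39 (71.8%, against 32.7% of all and 58.7% of those of tested genes), and the CACGTG letters of an E-box in 6 (15.4%, against 6.02% and 8.59%). SRE letters were in 1 of 39, against 1.05% of all promoters. RUNX core letters on either strand (TGTGGT with its variant TGTGGC, besides TGCGGT with its variant TGCGGC) were in 19 of 39 member promoters (48.7%, against 38.0% of all and 41.9% of those of tested genes). By gene they were in 15 of 29 members (51.7%), against 46.7% of tested genes. Split by the test described in the following, they were in 6 of 16 members that were lower in KO cells in IL-2 (37.5%) and in 8 of 12 that were not called (66.7%). The uncalled members have more promoters per gene. By promoter the letters were in 7 of 18 (38.9%) and 11 of 20 (55.0%), and this split was not tested. A match says only that the letters are there.

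A property of the deposited values set how they could be tested. Each WT array shares its number with a KO array of the same cytokine. For all 45101 probe sets the sum over such a pair was the same in every pair of a cytokine, to within 0.00014, so differences between pairs had been removed before deposit by a step that the sources used here do not describe. Within a cytokine, a WT array that is high for a gene is therefore matched by a KO array that is low by the same amount. The spread of an array group is thus set by that of the pair differences, and is smaller. KO was compared with WT by limma with the pair as a block, over 3 pairs for IL-2 and 2 for IL-15. A gene was called, and is said to have fallen or risen, at a Benjamini-Hochberg adjusted p under 0.05 over the 9391 tested genes and at least 1.5-fold. A difference is the log2 value of KO less that of WT, with the SD over pairs. Arrays of the same group correlated at 0.972 to 0.984 after this step.

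Runx3 itself was not called in either cytokine. In IL-2 its brightest probe set read 11.31, 11.57 and 12.06 in the WT arrays and 11.41, 11.15 and 10.66 in the KO arrays (-0.58 ± 0.76, SD, 3 pairs, adjusted p = 0.254), and in IL-15 the difference was -1.09 ± 0.09 (adjusted p = 0.293). The probe set's place relative to the deletion is not given in the sources used here, so this value does not check the genotype.

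Markers of NKC and of other cells were read in the same arrays. 9 of 10 NKC markers had a probe set, and all 9 were bright. Their summed level was 17.01 to 17.26 in WT and 16.77 to 16.99 in KO cells in IL-2. In IL-15 it was 17.15 to 17.22 and 16.75 to 16.82. The brightest markers set this sum, and single markers differed between WT and KO cells in both directions. In IL-2 the means of Ncr1 (9.58 and 11.69) and Tbx21 (11.12 and 12.54) were higher in KO cells. That of Prf1 (14.85 and 13.12) was lower. In IL-15 those of Prf1 (13.89 and 12.14), Klrk1 (10.34 and 8.91), Il2rb (12.05 and 11.32) and Klrd1 (15.31 and 14.67) were lower. Those of Gzmb (15.60 and 15.26) and Eomes (13.43 and 13.17) were slightly lower, and that of Nkg7 (14.08 and 14.36) was slightly higher. Ncr1 (12.07 and 12.09) and Tbx21 (12.27 and 12.32) were near equal. Among mast cell and basophil markers, 2 of 5 were bright. Their summed level was 12.32 to 14.45 in WT and 6.62 to 8.20 in KO cells in IL-2, and 9.52 to 10.34 and 5.34 to 5.61 in IL-15. The protease Mcpt8 had means of 13.46 and 6.82 in IL-2 and 9.58 and 2.55 in IL-15, and Cpa3 of 5.62 and 4.38, and of 7.24 and 4.21, while Fcer1a, Ms4a2 and Gata2 lay between 2.32 and 3.15 in every array. B cell markers summed to 8.74 to 8.88 in WT and 10.89 to 11.03 in KO cells in IL-2, and to 9.82 to 10.74 and 10.74 to 11.67 in IL-15, through Ighm alone, with Cd79a, Cd79b, Ms4a1 and Pax5 under log2 5. T cell markers (3 of 7 bright) summed to 8.67 to 10 in WT and 8.41 to 9.74 in KO cells in IL-2, and to 9.63 to 11.38 and 8.27 to 9.69 in IL-15. Macrophage and dendritic cell markers (7 of 9 bright) summed to 7.98 to 10.78 and 9.49 to 11.25 in IL-2 and to 9.44 to 10.19 and 9.37 to 10.22 in IL-15. In IL-2 the means of Cd74 (3.12 and 7.68), Lyz2 (5.07 and 7.97), H2-Aa (4.46 and 7.10) and Itgax (6.75 and 7.99) were higher in KO cells. Those of Cd14 (7.68 and 3.79) and Csf1r (7.75 and 6.19) were lower. In IL-15 Cd74 (3.04 and 5.63), Lyz2 (2.41 and 5.95), H2-Aa (3.74 and 5.98) and Csf1r (4.69 and 5.94) were higher in KO cells. Itgax (9.61 and 9.16), the brightest of this list there, was lower, and Cd14 (4.20 and 4.28) was near equal. No granulocyte or erythroid marker with a probe set was bright. The part of these differences in the levels of the members was not tested, and fewer cells of a type cannot be told apart from less RNA per cell.

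The question of the first comparison was which of these genes depend on Runx3 in NKC kept in IL-2. In KO cells the sterol arm was lower along nearly its whole length, and the fatty acid arm was lower at particular steps. 22 of the 35 members fell and 0 rose, where 9.17% of all tested genes fell and 10.5% rose. The median difference of the members was -1.51, against 0.11 for all tested genes, and 30 of the 35 lay below 0. In 27 members every KO array lay below every WT array, and in 1, Fasn, every KO array lay above.

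**Figure D1:**
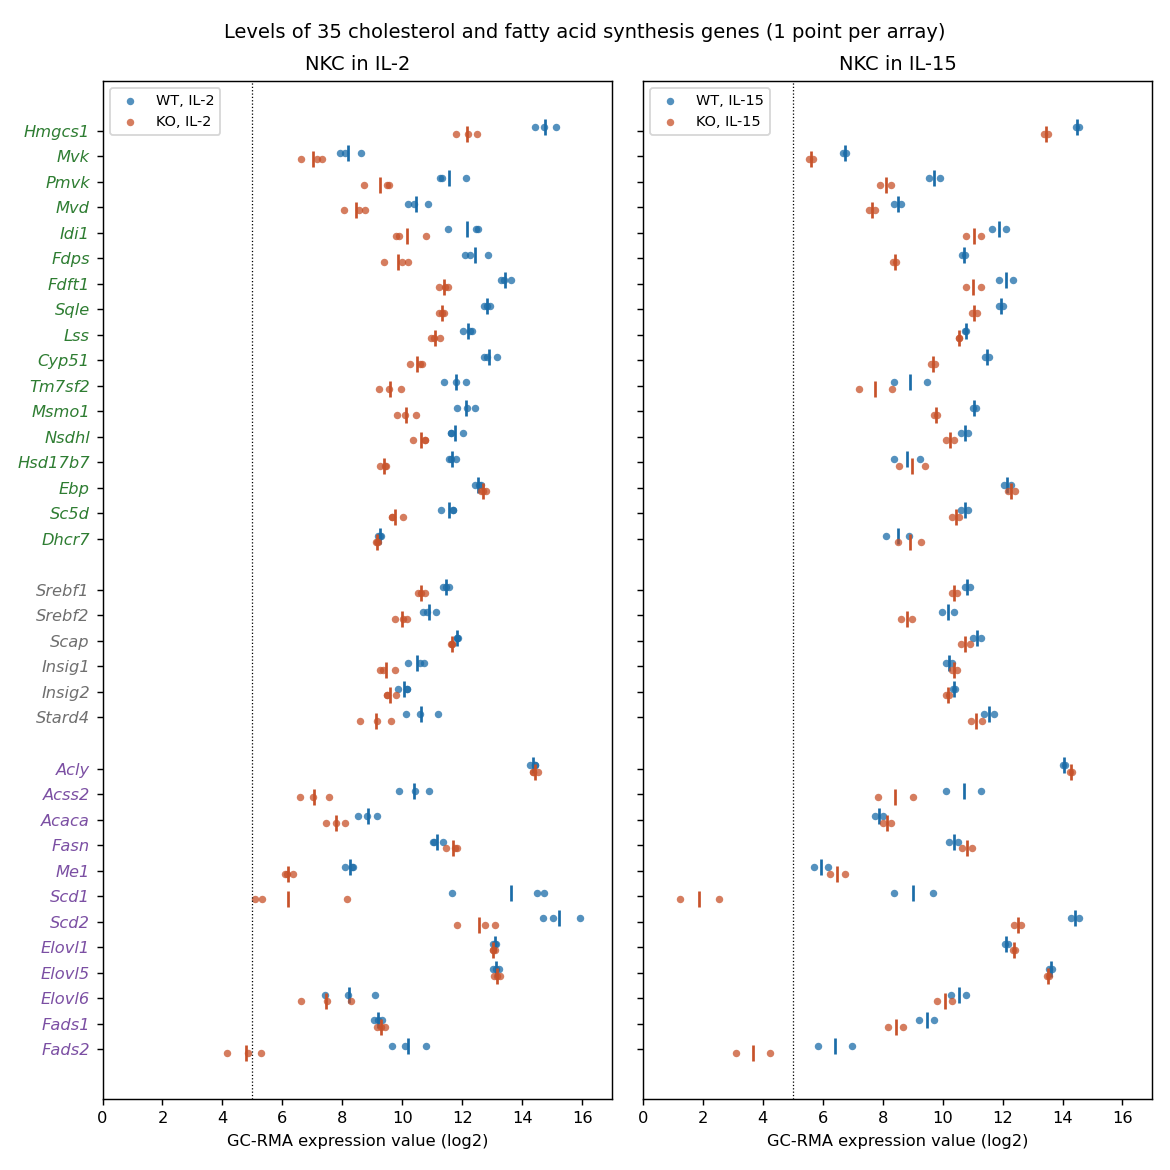
Log2 expression value of each of the 35 members (rows, names in green for the sterol arm, grey for regulators and purple for the fatty acid arm) in each array, for IL-2 on the left and IL-15 on the right, with WT in blue and KO in orange, group means as vertical bars and log2 5 as a dotted line. In IL-2 the WT and KO points were apart in 28 members, whereas Ebp, Dhcr7, Acly, Elovl1, Elovl5, Elovl6 and Fads1 had overlapping points. With equal pair sums, points are apart whenever all pair differences share a sign.

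All mevalonate steps with a value were lower. Hmgcs1, which makes the substrate of the rate-limiting reductase, read 14.73, 15.12 and 14.42 in WT and 12.19, 11.80 and 12.50 in KO cells. It thus fell 6.03-fold (-2.59 ± 0.70, adjusted p = 0.0048), and the lowest WT array was far above the highest KO array. Pmvk, phosphomevalonate kinase, read 12.12, 11.33 and 11.26 in WT and 8.71, 9.50 and 9.56 in KO cells (-2.31 ± 0.96, adjusted p = 0.0106). Mvd, which decarboxylates the product of that kinase, read 10.85, 10.18 and 10.39 against 8.07, 8.75 and 8.54 (-2.02 ± 0.69, adjusted p = 0.00908). Both had their widest gap in pair 1. Mvk, mevalonate kinase, was the dimmest of these enzymes and read 8.61, 8.09 and 7.91 in WT and 6.62, 7.14 and 7.33 in KO cells. It fell 2.26-fold, close to the threshold (-1.17 ± 0.74, adjusted p = 0.048), and was no longer called after the arrays were centred on their medians, after quantile normalization or with a variance trend.

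The isoprenoid and squalene steps fell as well. Idi1, which interconverts the isoprenoid diphosphates, read 12.45, 12.52 and 11.53 in WT and 9.88, 9.80 and 10.79 in KO cells (-2.01 ± 1.10, adjusted p = 0.0237). Its pairs were uneven, with differences of -2.57, -2.72 and -0.74. Fdps, farnesyl diphosphate synthase, read 12.87, 12.09 and 12.27 against 9.40 to 10.18 in the KO arrays, and fell 5.88-fold (-2.56 ± 0.82, adjusted p = 0.00574). Fdft1, squalene synthase, read 13.61, 13.29 and 13.40 against 11.21, 11.53 and 11.42 (-2.04 ± 0.32, adjusted p = 0.00658). Sqle, squalene epoxidase, read 12.74, 12.92 and 12.81 against 11.39, 11.21 and 11.32. Its fall of 2.86-fold was among the most even over pairs (-1.51 ± 0.18, adjusted p = 0.00874).

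From lanosterol onward all but 2 enzymes fell. Cyp51, the lanosterol demethylase, read 13.15, 12.74 and 12.81 in WT and 10.25, 10.66 and 10.59 in KO cells (-2.40 ± 0.45, adjusted p = 0.00389), a 5.27-fold fall. Hsd17b7, a keto-sterol reductase, read 11.80, 11.61 and 11.57 against 9.24, 9.43 and 9.47 (-2.28 ± 0.25, adjusted p = 0.00927). Neither gene had a KO array within 2 log2 units of its lowest WT array. Tm7sf2, a sterol reductase, fell 4.61-fold (adjusted p = 0.0226), and Msmo1, the methylsterol monooxygenase, fell 4.03-fold (adjusted p = 0.00721). Sc5d, a sterol desaturase, fell 3.43-fold (adjusted p = 0.0086). The shallower falls of this stretch were those of Lss, lanosterol synthase (2.15-fold, -1.10 ± 0.30, adjusted p = 0.0248), and of Nsdhl, a sterol dehydrogenase (2.17-fold, -1.12 ± 0.46, adjusted p = 0.0358).

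Ebp and Dhcr7 were not called. Ebp, the sterol isomerase, read 12.62, 12.44 and 12.55 in WT and 12.62, 12.80 and 12.69 in KO cells, a difference of 0.16 with a 95% interval of -0.41 to 0.74. Dhcr7, the reductase that completes cholesterol, read 9.28, 9.19 and 9.26 against 9.12, 9.20 and 9.14, a difference of -0.09 with an interval of -0.88 to 0.70. These intervals do not reach the fall of the least changed called sterol enzyme, Lss, at -1.10. The sterol arm as a whole thus had 15 of 17 members called lower, with a median of -2.01.

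Among the regulators 2 of 6 fell, and all 3 pair differences were below 0 in each of the 6. The share of all tested genes with all 3 below 0 was not counted. Insig1, which retains the SREBP escort complex in the endoplasmic reticulum and is itself an SREBP target, read 10.72, 10.60 and 10.19 in WT and 9.24, 9.35 and 9.77 in KO cells (-1.05 ± 0.56, adjusted p = 0.0485). Stard4, a sterol carrier, read 10.60, 11.18 and 10.12 against 9.16, 8.58 and 9.63 (-1.51 ± 1.06, adjusted p = 0.0472). Both were near the threshold, with uneven pairs. Srebf1 and Srebf2, which encode the SREBPs, missed it: Srebf1 had means of 11.45 and 10.62 (-0.83 ± 0.21, adjusted p = 0.0544) and Srebf2 of 10.88 and 9.98 (-0.90 ± 0.42, adjusted p = 0.0715). Srebf1 was called after centring, after quantile normalization, with a variance trend and with every named gene tested. It has 1 probe set, and was also called where the other genes were given the mean of theirs. Insig2 had a difference of -0.48 (interval -1.08 to 0.12), and Scap, which encodes the escort protein, one of -0.19 (interval -0.77 to 0.39).

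The fatty acid arm held the widest differences and also the members closest to 0. Scd1, a stearoyl-CoA desaturase that makes monounsaturated fatty acids, read 14.72, 11.66 and 14.50 in WT and 5.08, 8.14 and 5.31 in KO cells. Its difference of -7.45 ± 3.41 (175-fold, adjusted p = 0.00874) was far narrower in pair 2, at -3.52, than in pair 1 (-9.64) and pair 3 (-9.19). Fads2, the first desaturase of polyunsaturated fatty acid synthesis, read 10.80, 9.66 and 10.10 in WT and 4.15, 5.29 and 4.86 in KO cells. Because the KO mean lay under log2 5, the fold is given against log2 5, as at least 36.5-fold lower (-5.42 ± 1.15, adjusted p = 0.00293). Scd2, the related desaturase, read 15.94, 14.70 and 15.02 against 11.83, 13.08 and 12.75 (-2.67 ± 1.29, adjusted p = 0.0119).

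Enzymes that supply acetyl-CoA and reducing power also fell. Acss2, which makes acetyl-CoA from acetate, read 9.89, 10.43 and 10.88 in WT and 7.57, 7.03 and 6.58 in KO cells, a 10.1-fold fall (-3.34 ± 1.0, adjusted p = 0.00908). Me1, the cytosolic malic enzyme, which supplies NADPH, read 8.32, 8.37 and 8.10 against 6.14, 6.08 and 6.35 (-2.07 ± 0.29, adjusted p = 0.00588). The 2 groups of arrays were well apart for both. Acly, which makes acetyl-CoA from citrate, read between 14.27 and 14.51 in all 6 arrays and differed by 0.05 (interval -0.50 to 0.61).

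The enzymes that build the carbon chain were not called. Fasn, fatty acid synthase, read 11.07, 11.35 and 11.01 in WT and 11.75, 11.47 and 11.81 in KO cells, a difference of 0.53 ± 0.36 (adjusted p = 0.208, interval -0.11 to 1.18). Acaca, acetyl-CoA carboxylase, which makes the malonyl-CoA that Fasn uses, had means of 8.84 and 7.79 (-1.05 ± 0.64, adjusted p = 0.0577), and was called after centring and after quantile normalization. The elongases Elovl1 and Elovl5 differed by -0.05 and 0.03 and the desaturase Fads1 by 0.11. Elovl6, which elongates saturated chains, had pair differences of -0.70, -2.45 and 0.87, so that its mean of -0.76 ± 1.66 was smaller than its spread.

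**Figure D2:**
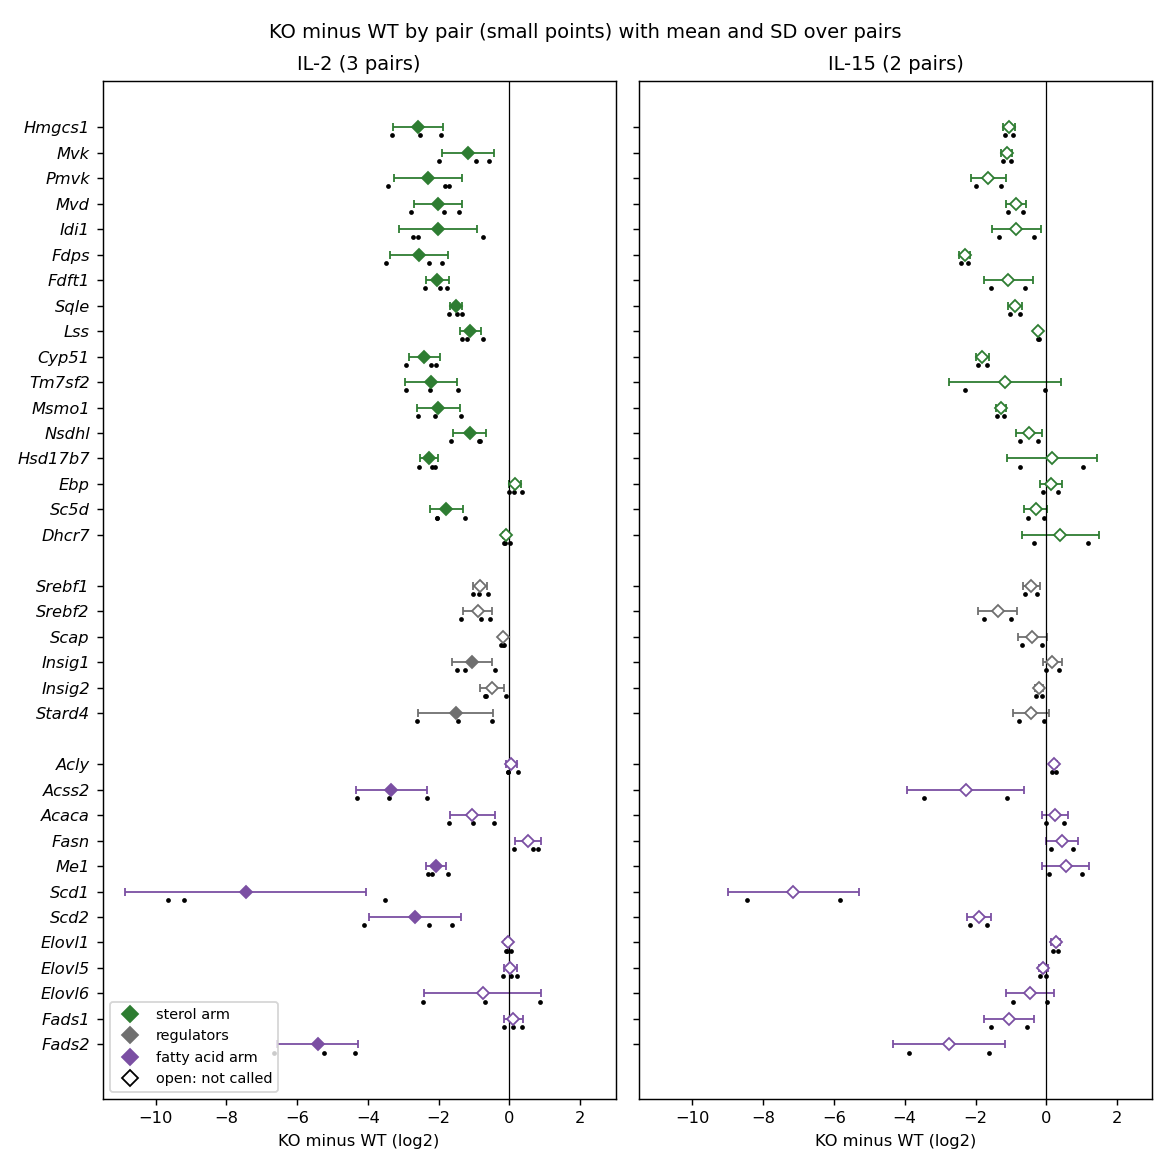
KO minus WT (log2) of each member in IL-2 on the left and in IL-15 on the right, with the mean and the SD over pairs as a diamond and bar and each pair as a small point; filled diamonds are called. In IL-2, 22 diamonds were filled, all left of 0, from Insig1 at -1.05 to Scd1 at -7.45, and in IL-15 none was filled.

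The arms differed in how evenly their genes behaved. The fatty acid arm had 5 of 12 members called lower, with a median of -0.90. Over genes, the SD of the difference was 0.81 in the sterol arm and 2.50 in the fatty acid arm. The median of the sterol arm less that of the fatty acid arm was -1.68, -0.10 and -1.19 in the 3 pairs. With means, to which Scd1 and Fads2 contribute most, the same difference was -0.03, 0.03 and 0.39. So the order of the arms rested on the summary used, and no test was made of it.

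The calls in IL-2 changed when a pair or the other cytokine was left out. Without pair 1, 10 of the 22 members were still called, and the 12 lost were Fdft1, Hsd17b7, Idi1, Insig1, Lss, Mvd, Mvk, Nsdhl, Sc5d, Scd1, Stard4 and Tm7sf2. Scd1 then differed by -6.35 (adjusted p = 0.0679), and Scd2, still called, by -1.95. Scd1 differed by -9.41 without pair 2 and by -6.58 without pair 3, and Idi1 by -2.65 without pair 3. Without pair 2, 17 were still called, without Idi1, Insig1, Mvk, Nsdhl and Stard4. Without pair 3, 19 were still called, without Lss, Nsdhl and Tm7sf2, and Acaca was gained. Members higher in KO were 0 in each case. With the IL-15 arrays left out of the fit, 17 were called, without Insig1, Lss, Mvk, Nsdhl and Stard4. With every named gene tested, bright or not, 12 members were called (11 of the 22, and Srebf1), and 842 of the 18194 genes in all.

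Further probe sets of the same genes were examined because the brightest might not represent a gene. 34 further probe sets of 21 members were bright enough, and 29 of them had the sign of the brightest in IL-2. For the called members this held for 23 of 23. Both further probe sets of Scd2 read lower in KO cells, at -2.86 and -4.44, as did those of Fads2, at -5.00 and -4.70. The further probe set of Lss had a difference of -0.29, and with the mean over probe sets Lss was not called.

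Neighbouring pathway genes were read in the same fit, in which 9.17% of all tested genes fell and 10.5% rose. Of 8 genes of SREBP processing and activity 5 fell and 0 rose. Sec23a and Sec24d, coat proteins of the vesicles that leave the endoplasmic reticulum, fell by 1.79 and 1.29 (adjusted p = 0.00583 and 0.0316). Mbtps2, the intramembrane protease that releases active SREBP, fell by 1.20 (adjusted p = 0.0373). Lpin1, a phosphatidate phosphatase that restrains nuclear SREBP, fell as well, by 1.68 (adjusted p = 0.00996).

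Of 17 other genes of fatty acid and lipid synthesis 4 fell and 0 rose. Fads3, related to Fads1 and Fads2, read 7.08, 7.57 and 7.90 in WT and 2.30, 1.81 and 1.48 in KO cells, at least 5.71-fold lower against log2 5 (-5.65 ± 0.83, adjusted p = 0.00102). The acyl-CoA synthetase Acsl4 fell by 2.41, and Acsl3 at least 3.57-fold against log2 5, with a KO mean of 4.66. Idh1, a cytosolic source of NADPH, fell by 1.78. Among 10 genes of sterol uptake, transport, storage and efflux, Abca1, the cholesterol exporter, fell at least 2.47-fold against log2 5, its KO mean being 2.73 (adjusted p = 0.00775), and so did Lpcat3, which puts polyunsaturated chains into phospholipids (-0.94 ± 0.40, adjusted p = 0.0487). Of 8 further genes of sterol synthesis and the isoprenoid branch, Pggt1b, a subunit of a prenyltransferase, alone fell (-1.55 ± 0.25, adjusted p = 0.0157). Of 16 genes of fatty acid oxidation 0 fell and 1, the thiolase Acaa2, rose (0.98 ± 0.19, adjusted p = 0.0347), beside 9.17% and 10.5% of all tested genes. The median of this list was -0.14.

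**Figure D3:**
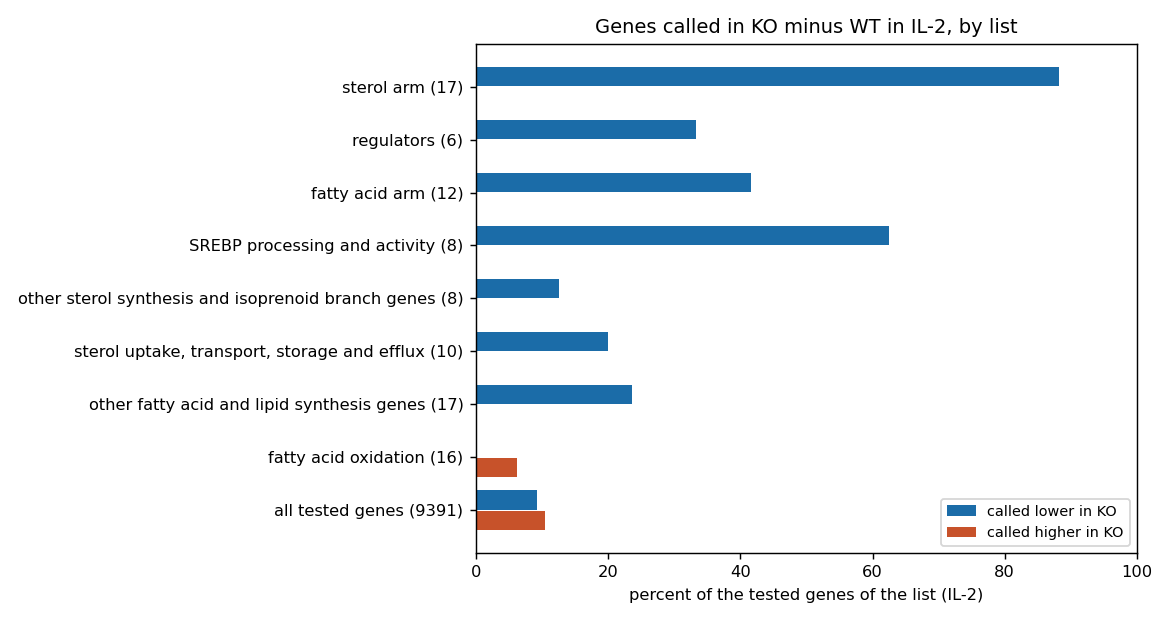
Percent of the tested genes of each list (number tested in brackets) called lower (blue) or higher (orange) in KO cells in IL-2, with all 9391 tested genes at the bottom. The sterol arm, with 15 of 17 called lower, had the longest bar. Fatty acid oxidation was the only list with a gene called higher (1 of 16, beside 10.5% of all tested genes).

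The second comparison asked the same of NKC kept in IL-15, with 2 pairs. None of the 35 members was called by limma, although 14 had an unadjusted p under 0.05 and all 14 of these were lower in KO cells. Of the 9391 tested genes 1269 had an unadjusted p under 0.05. Over all tested genes 0.841% fell and 0.458% rose in IL-15. The median difference of the members was -0.49, against -0.01 for all tested genes. In 24 members both KO arrays lay below both WT arrays, against 4 with both above. With equal pair sums this says only that the 2 pair differences shared a sign, and the count over all tested genes was not made. Without the replicate block 14 members were called lower, beside 758 of the 9391 tested genes. The thresholds of the study's methods (unadjusted p) also gave 14, beside 724.

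The members closest to the threshold in IL-15 were Fdps and Cyp51. Fdps read 10.76 and 10.66 in WT and 8.35 and 8.45 in KO cells (-2.31 ± 0.15, adjusted p = 0.0629). Cyp51 read 11.56 and 11.43 against 9.62 and 9.76 (-1.81 ± 0.19, adjusted p = 0.0629). The pair differences were close for both, at -2.42 and -2.21 for Fdps and at -1.94 and -1.67 for Cyp51. Scd1 read 9.69 and 8.37 in WT and 1.23 and 2.54 in KO cells, at least 16.3-fold lower against log2 5 (-7.15 ± 1.86, adjusted p = 0.0768). With a variance trend these 3 genes were called, and without pair 2 of IL-2 Scd1 alone was. Leaving out a pair of IL-15 leaves 1 pair there, assumed to vary like those of IL-2, and 0 or 11 of all tested genes were then called, with no member among them.

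Several further members were lower in KO cells in IL-15 without passing the correction. Srebf2 read 10.37 and 9.98 against 8.60 and 8.99 (-1.37 ± 0.55, adjusted p = 0.137), and Fads2 6.98 and 5.86 against 3.11 and 4.23 (at least 2.68-fold lower against log2 5, adjusted p = 0.124). Scd2 had a difference of -1.91 ± 0.34, Acss2 of -2.28 ± 1.65, Pmvk of -1.64 ± 0.49, Msmo1 of -1.28 ± 0.13 and Hmgcs1 of -1.05 ± 0.16. Their adjusted p lay between 0.175 and 0.294. Hsd17b7, which had fallen in IL-2, had pair differences of -0.73 and 1.05 in IL-15, and Me1 read 5.71 and 6.18 in WT and 6.73 and 6.26 in KO cells.

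Whether the genotype difference itself depended on the cytokine was tested by the interaction term. The arrays of the cytokines also differ in Xist, transcribed from the inactive X chromosome, at 4.64 to 5.37 in IL-2 and 14.28 to 14.66 in IL-15. The cytokine and whatever Xist marks cannot be told apart, here or where IL-15 is set beside IL-2. No gene was called by the interaction term (0% of the tested genes lower and 0% higher, with 1106 genes at an unadjusted p under 0.05). Of the members, 29 of 35 had a less negative or more positive difference in IL-15 than in IL-2, with a median of 0.64, against -0.14 over all tested genes. Me1 had the clearest single value, from -2.07 in IL-2 to 0.55 in IL-15 (2.62, interval 1.55 to 3.70, unadjusted p = 0.000733, adjusted p = 0.182). Hsd17b7 followed (2.44, interval 1.06 to 3.83, adjusted p = 0.26). Unadjusted p under 0.05 was also found for Sc5d, Hmgcs1, Fads2, Insig1 and Acaca, with positive values, and for Fads1, with -1.16. The value of Fads2 is not exact, since its KO means lay under log2 5 in both cytokines. For Fdps the interaction was 0.24 (interval -1.05 to 1.54).

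**Figure D4:**
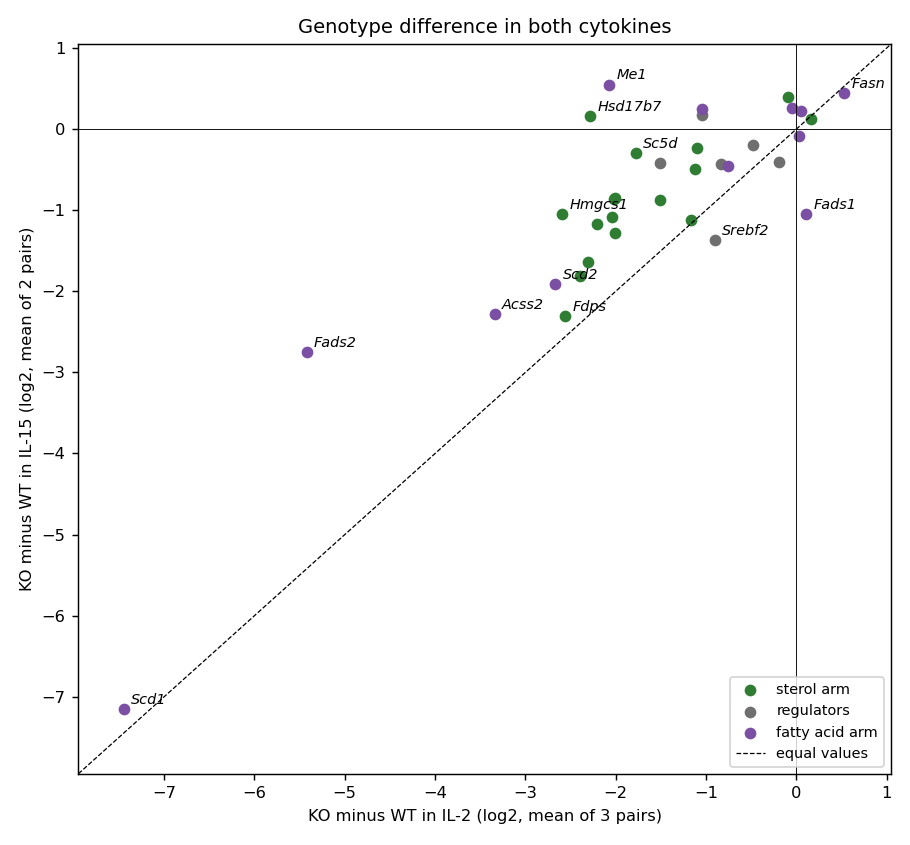
KO minus WT (log2) in IL-2 (horizontal, mean of 3 pairs) and in IL-15 (vertical, mean of 2 pairs) for each member, coloured by arm, with the line of equal values dashed. Most members lay above the line, that is with a less negative difference in IL-15. The KO means of Scd1 in IL-15 and of Fads2 in both cytokines were under log2 5, so the places of these points are not exact.

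The differences in the 2 cytokines were measured on separate arrays. Over the 35 members they correlated across genes at a Pearson's r of 0.86 and a Spearman's rho of 0.70, and at 0.74 and 0.67 without Scd1. Genes are not independent replicates, so this is a description. Both differences were below 0 in 24 members and above 0 in 3.

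The last comparison set IL-15 beside IL-2 within a genotype. Because pair differences had been removed, the spread between arrays of a cytokine is too small, so these are differences of means with no test, counted at 1.5-fold. In WT cells 24 members were lower and 2 higher in IL-15, beside 21.8% lower and 34.5% higher over all tested genes. All 17 sterol enzymes were below 0, with a median of -1.32, and 14 of them passed 1.5-fold. In KO cells 13 members were lower and 8 higher, beside 26.4% and 27.6%, and the sterol enzymes had a median of -0.40. Centring the arrays moved the median over all genes from 0.18 to -0.02 in WT and from -0.08 to -0.20 in KO cells, and turned the split over all genes in WT from 3239 higher and 2051 lower to 2623 and 2649 (2700 and 2568 with quantile normalization). The members' counts in WT stayed at 24 and 2 under both, and were 19 and 2 with the mean of probe sets. With that mean the sterol enzyme Sc5d was at 0.09 in WT.

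In WT cells Tm7sf2 and Hsd17b7 were 7.22-fold and 7.16-fold lower in IL-15 than in IL-2, and Me1 was 4.99-fold lower. Scd1 was 24.2-fold lower, from a mean of 13.63 to 9.03, a value that turned on single arrays. It was 47.9-fold lower without array 2 of WT in IL-2, and 38.2-fold and 15.4-fold lower without array 1 or array 2 of WT in IL-15. Fads2 was 13.6-fold lower (means 10.19 and 6.42). Elovl6 went the other way in both genotypes, from 8.23 to 10.54 in WT and from 7.47 to 10.08 in KO cells. By its brightest probe set Stard4 did so too, from 10.63 to 11.55 and from 9.12 to 11.12. Its further probe sets were split. One, nearly as bright, was lower in IL-15, from 11.59, 11.40 and 11.03 to 10.28 and 10.52 in WT cells. In KO cells it went from 9.83, 10.02 and 10.39 to 9.62 and 9.38. The other went with the brightest. Hmgcs1 was near equal in WT cells, at 14.75 and 14.50, and higher in IL-15 in KO cells, at 12.16 and 13.45. Idi1 and Insig1 had the same pattern, with WT differences of -0.28 each and KO differences of 0.88 and 0.94.

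**Figure D5:**
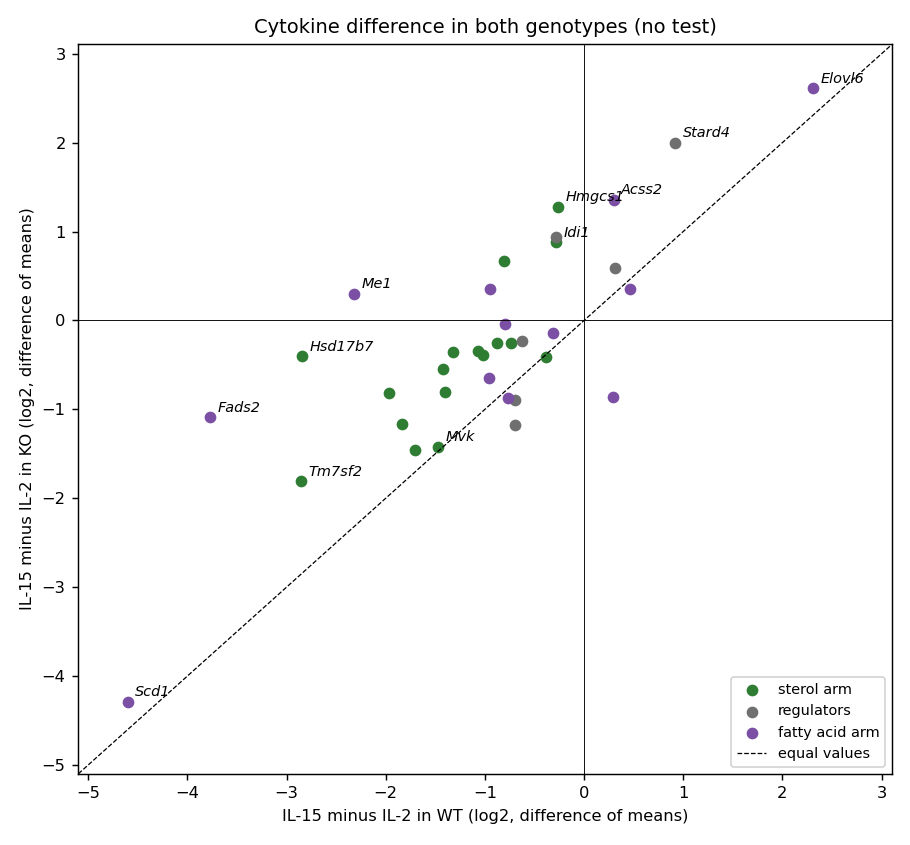
Difference of group means, IL-15 minus IL-2 (log2), in WT (horizontal) and KO cells (vertical) for each member, coloured by arm, with the line of equal values dashed. All 17 sterol enzymes lay left of 0 in WT, and Elovl6 was the highest in both genotypes.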

How the data were processed

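RNA of the 10 NKC samples was hybridized by the authors to Affymetrix mouse arrays with 45101 probe sets. Per the labels, the deposited log2 values were made by the authors with GCRMA in Partek (versions not given in the sources used here). Neither source describes the removal of pair differences, which was read from the pair sums (largest difference 0.00014 in IL-2 and 0.00013 in IL-15, against a median of 0.193 and 0.17 for crossed numbers). It is why the pair was a block, with 3 residual degrees of freedom in place of 6.

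Probe sets were named from the platform's gene table (34958 with 1 symbol, 932 with several, 9211 unlisted). The brightest single-symbol probe set stood for a gene and was tested at log2 5 or more in at least 2 arrays. Fits used limma 3.58.1 in R 4.3.3, checked on simulated data. Where a group mean lay under log2 5, the fold is a lower limit against log2 5. Intervals are 95% intervals of the fit.

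Members and lists were chosen with earlier results of these data known, so no set test and no p adjusted over a list was made. All members were named, with called genes of the other lists, at most the 4 of largest difference per list and comparison. Motif letters were searched in the 250 RefSeq bases before each start (GRCm38.p6, 29 of 36 members). The number of arrays limits the precision.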

Additional observations from a re-analysis of the deposited data

How the results depend on the processing

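In IL-2 the 22 members called lower became 25 with no replicate block and 25 at the unadjusted thresholds of the study's methods, 23 after centring or quantile normalization, 12 with no filter on low values, and 10 to 20 when a pair was left out. No member was called higher under any of these. Over all tested genes 1851 calls became 3803 with no replicate block, 842 with no filter, 3391 at the study's thresholds and 537 to 1525 without a pair. The 12 genes of the other lists called lower became 5 with no filter and 5 to 8 without a pair.

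In IL-15 the 0 members called became 14 lower with no replicate block, 14 at the study's thresholds, 3 with a variance trend and 0 to 1 without a pair. The 122 calls over all genes (43 higher and 79 lower) became 1321 with no replicate block, 1269 at the study's thresholds, 71 with quantile normalization (35 and 36), 93 after centring (42 and 51), 44 with the mean of probe sets, 41 with the IL-15 arrays alone, 0 with no filter (1697 at an unadjusted p under 0.05), and 0 to 95 without a pair. For the interaction, with no replicate block 1 member was lower and 8 were higher, at the study's thresholds 1 and 7, and the 0 calls over all genes became 1157, 1106, 4 with the stricter filter and 0 to 1 without a pair.

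In WT, limma on group means called 1 member higher in IL-15, against 2 past the fold. The median difference of sterol less fatty acid arm turned sign with the mean in place of the median, from -1.11 to 0.13 in IL-2 and from -0.61 to 0.32 in IL-15. In IL-15 it was also -0.64 with quantile normalization, -0.63 with the mean of probe sets, -0.79 without Scd1 and -0.66 without either pair.

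Some members changed sign. In KO minus WT in IL-2, Acly gave -0.01 after centring, -0.06 with quantile normalization, -0.11 with the mean of probe sets and -0.04 to 0.10 without a pair. Elovl5 gave -0.03 and -0.05 under the scalings and -0.06 to 0.13 without a pair. Elovl1 gave 0.01 with the mean of probe sets, and without a pair Elovl6 gave -1.57 to 0.09 and Fads1 -0.03 to 0.24. In KO minus WT in IL-15, Hsd17b7 gave -0.19 with the mean of probe sets. Without a pair it gave -0.73 to 1.05, Acaca -0.01 to 0.51, Dhcr7 -0.36 to 1.17, Ebp -0.08 to 0.34, Elovl5 -0.17 to 0.00, Elovl6 -0.95 to 0.03 and Insig1 -0.02 to 0.35. With the mean of probe sets Sc5d gave 0.09 for IL-15 minus IL-2 in WT, and Cyp51 gave 0.01 for IL-15 minus IL-2 in KO. The cause of these changes was not tested.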
